A study of Mus musculus with 4 samples.

Results

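Genes of intestinal fat absorption and of the brush border were followed in mouse colon on 4 arrays. They were chosen by name, as every probe other than a control whose gene name on the array was Fabp1, Fabp2, Fabp6, Apoa1, Apoa4, Apob, Mttp, Sis, Anpep or Vil1. These 10 genes of 22384 named on the array were covered by 11 probes of 39423, with a pair of probes for Apob and 1 for each other gene. Of the 10, 9 were well above background on at least 1 array and 6 on all 4, by the call of the scanner software.

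Each array was hybridized with RNA pooled from the colons of 1 group of male mice, 42 weeks old, of strain B6.129 (n3). The groups were Pla2g3+/+ and Pla2g3-/- mice given saline as the vehicle, and Pla2g3+/+ and Pla2g3-/- mice given azoxymethane (AOM), which is used to cause tumors of the colon. Pla2g3 encodes group III secreted phospholipase A2, an enzyme that releases fatty acids and lysophospholipids. AOM was given into the peritoneum in weekly doses of 10 mg/kg over 6 weeks, and tissue was collected 28 weeks after dosing ended. A pool held RNA of 3 to 5 mice by the labels, which describe the tissue of both AOM groups as colorectal cancer. Each group had 1 array and no replicate, so that differences between arrays carry no p-value, and the spread between mice is unknown.

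In the small intestine, enterocytes take up fatty acids and monoacylglycerol, carry them through the cytosol on fatty acid binding proteins, rebuild triglyceride and load it onto apolipoprotein B as chylomicrons. Their luminal face is a brush border of microvilli, which are bundles of actin filaments carrying digestive enzymes and transporters. Colonocytes have a brush border too, but the colon is not a main site of fat or sugar digestion.

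Values are the background-subtracted signal of a probe, or the relative signal, which is that signal over the 75th percentile of all spots other than controls on the same array. A signal of a bright spot had an error of about 10.0% by the scanner software, which gives about 0.20 on the log2 scale for a ratio of 2 arrays. This error covers the measurement of the spot and not the mice. If just 1 array of a comparison passed the background call for a gene, the ratio is a bound and is written "at least", and if neither did, no ratio is given. The lowest signal well above background was 10.7 on the Pla2g3+/+ vehicle array, 14.8 on the Pla2g3-/- vehicle array, 16.4 on the Pla2g3+/+ AOM array and 17.1 on the Pla2g3-/- AOM array. A 2-fold difference was taken as the threshold.

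Pla2g3, the targeted gene, was not lower in the pools labelled Pla2g3-/-. Its brightest probe gave signals of 343 on the Pla2g3+/+ vehicle array, 426 on the array labelled Pla2g3-/- with vehicle, 304 on the Pla2g3+/+ AOM array and 1632 on the array labelled Pla2g3-/- with AOM. In relative signal these were 0.531, 0.656, 0.232 and 1.40, a genotype difference of 1.23-fold with vehicle and 6.01-fold with AOM. Its other probes were 1.06-fold and at least 2.31-fold higher in the pool labelled Pla2g3-/- with vehicle, and 6.66-fold and 2.76-fold higher with AOM. Where its probes lie relative to the disrupted part of the gene is not given in the sources used here, and every direction below follows the labels. Of 43020 spots per array, 64.8% to 69.4% passed the background call and 0 were saturated. The tissue check gave colon markers on all arrays: 6 of 6 genes of a colon and rectum list, among them Hoxb13, were well above background on each. Of 12 small intestine genes, Fabp6 among them, 6, 5, 9 and 8 were well above background on the Pla2g3+/+ vehicle, Pla2g3-/- vehicle, Pla2g3+/+ AOM and Pla2g3-/- AOM arrays. Slc10a2, Apoc3, Alpi and Enpep were so on all 4, and Fgf15 on none. Onecut2 had a signal of 15470 on the Pla2g3+/+ AOM array and was not well above background on the others.

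The 4 genes whose signal was over 2-fold lower on the Pla2g3+/+ AOM array than on the Pla2g3+/+ vehicle array were Fabp1, Fabp2, Fabp6 and Sis. Their promoters, the 250 bases before the RefSeq start on GRCm38.p6, are shown because these genes moved together there, and matches to 4 motifs are in capitals. All 10 genes had a promoter in the RefSeq table. The motifs, searched on both strands of 250 bases before to 50 after the start, were HNF4 (CAAAGTCCA), HNF1 (GTTAATNAT), CDX (TTTATNG) and the TATA box (TATAAA), and the reverse of the CDX motif can overlap a TATA box.
Fabp1, chr6:71199629-71199878, plus strand: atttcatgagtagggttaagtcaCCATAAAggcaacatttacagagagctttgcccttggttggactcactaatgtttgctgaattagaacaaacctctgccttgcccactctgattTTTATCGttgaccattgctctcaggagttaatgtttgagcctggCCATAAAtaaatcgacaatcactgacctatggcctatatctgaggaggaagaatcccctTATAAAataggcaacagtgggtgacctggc
Fabp2, chr3:122894822-122895071, plus strand: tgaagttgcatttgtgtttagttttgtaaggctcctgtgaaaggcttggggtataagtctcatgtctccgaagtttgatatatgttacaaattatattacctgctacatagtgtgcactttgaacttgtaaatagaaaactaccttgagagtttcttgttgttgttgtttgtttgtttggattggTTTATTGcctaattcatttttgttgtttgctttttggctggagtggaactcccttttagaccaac
Fabp6, chr11:43601563-43601812, minus strand: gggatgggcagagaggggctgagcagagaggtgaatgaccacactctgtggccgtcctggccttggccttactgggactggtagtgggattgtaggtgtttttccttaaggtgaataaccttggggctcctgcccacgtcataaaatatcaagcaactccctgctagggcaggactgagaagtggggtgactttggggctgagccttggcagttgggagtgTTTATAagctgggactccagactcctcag
Sis, chr3:72967864-72968113, minus strand: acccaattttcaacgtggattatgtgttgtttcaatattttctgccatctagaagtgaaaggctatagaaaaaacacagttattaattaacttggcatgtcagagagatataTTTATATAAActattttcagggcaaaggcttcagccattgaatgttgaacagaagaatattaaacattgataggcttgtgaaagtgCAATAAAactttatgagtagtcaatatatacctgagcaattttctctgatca

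The CDX letters, recognized by the intestinal homeobox factors Cdx1 and Cdx2, were in the promoters of 4 of the 10 genes, Fabp1, Fabp2, Sis and Apob, and in 10.9% of 32851 mouse promoters of the same length. The match in Apob overlaps its TATA box. The TATA box was in 4 of the 10, Fabp1, Fabp6, Sis and Apob, and in 13.6% of all. The HNF4 and HNF1 letters were in 0 of the 10, and in 0.475% and 0.801% of all promoters. These are matches of letters and not sites of binding.

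**Figure D1:**
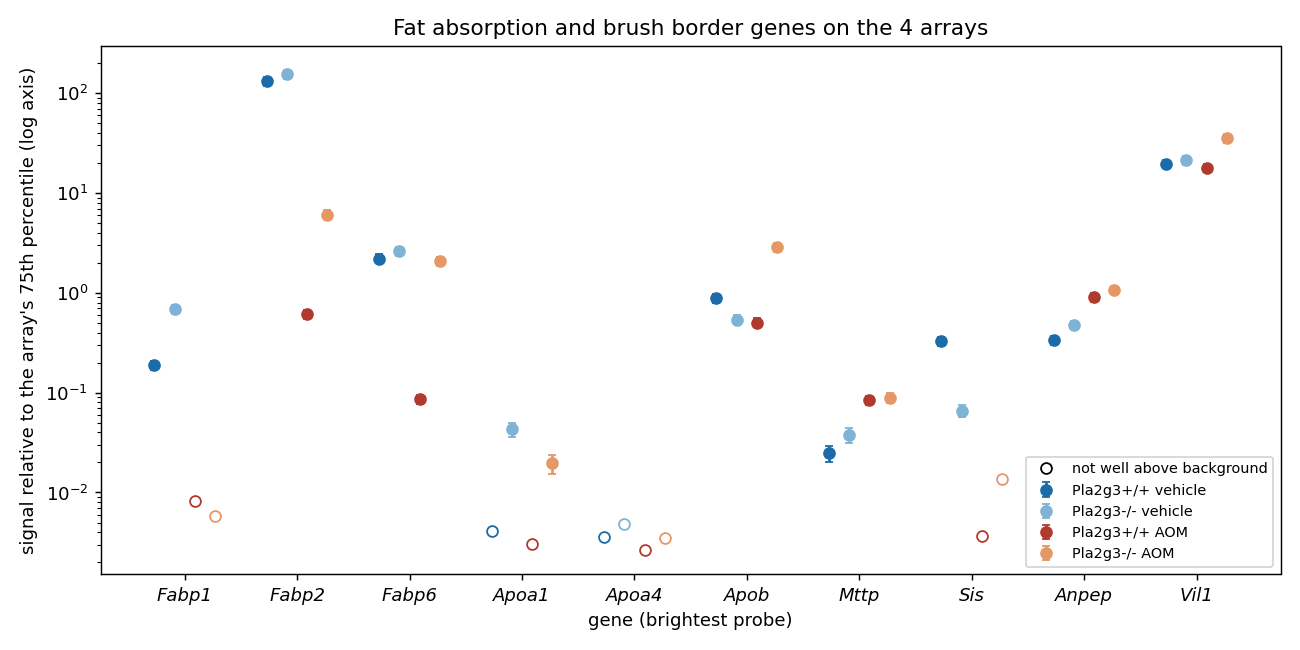
Relative signal of the brightest probe of each gene on each of the 4 arrays, on a log axis. Filled points were well above background and carry the scanner error, and open points were not. Fabp2 stood at 133 and 156 on the vehicle arrays and at 0.614 and 6.10 on the AOM arrays, and Apoa4 was not well above background on any.

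Fabp2, the intestinal fatty acid binding protein, is a cytosolic carrier of long-chain fatty acids in enterocytes. Its probe (mm9 chromosome 3, 122602276 to 122602335) gave a signal of 85700 on the Pla2g3+/+ vehicle array, 101300 on the Pla2g3-/- vehicle array, 803 on the Pla2g3+/+ AOM array and 7131 on the Pla2g3-/- AOM array. Both vehicle arrays were high and both AOM arrays low, with the Pla2g3+/+ AOM array the lowest. On the relative scale the signal was 216-fold lower with AOM than with vehicle in Pla2g3+/+ (log2 ratio -7.76 with a scanner error of 0.20), and 25.5-fold lower in the pools labelled Pla2g3-/-. Between the AOM arrays it was 9.94-fold higher in the pool labelled Pla2g3-/-, whereas the vehicle arrays differed 1.17-fold.

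Fabp6, the ileal bile acid binding protein, carries bile acids through the enterocyte. Its probe (chromosome 11, 43410973 to 43411032) gave 1425 and 1689 on the Pla2g3+/+ and Pla2g3-/- vehicle arrays, and 114 and 2426 on the corresponding AOM arrays. The Pla2g3+/+ AOM array alone was low. The relative signal was 25.5-fold lower with AOM in Pla2g3+/+ (log2 ratio -4.67) but within 2-fold in the pools labelled Pla2g3-/- (-0.32), and between the AOM arrays it was 23.9-fold higher in the pool labelled Pla2g3-/-.

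Fabp1, the liver fatty acid binding protein, is made by both hepatocytes and enterocytes. Its probe (chromosome 6, 71154906 to 71154965) gave 121 on the Pla2g3+/+ vehicle array and 444 on the Pla2g3-/- vehicle array, and 10.8 and 6.81 on the AOM arrays, where it was not well above background. It was thus at least 14.9-fold lower with AOM in Pla2g3+/+ and at least 46.7-fold lower in the pools labelled Pla2g3-/- (log2 bounds -3.90 and -5.54). With normexp and quantile scaling these were -1.20 and -2.52, still past 2-fold. With vehicle it was 3.64-fold higher in the pool labelled Pla2g3-/- (log2 ratio 1.86).

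Apoa1 and Apoa4 encode apolipoproteins of high density lipoproteins and chylomicrons, which liver and small intestine secrete. The Apoa1 probe (chromosome 9, 46037921 to 46037980) was spotted repeatedly, and its mean signal was 2.66 on the Pla2g3+/+ vehicle array and 4.01 on the Pla2g3+/+ AOM array, with 0 of its spots well above background on either. It was 27.8 on the Pla2g3-/- vehicle array, where 10 of 10 spots were well above background, and 23.0 on the Pla2g3-/- AOM array, where 7 of 10 were. Apoa1 was therefore detected in both pools labelled Pla2g3-/- and in neither Pla2g3+/+ pool, near the detection limit. With vehicle it was at least 2.58-fold higher in the pool labelled Pla2g3-/-, and with AOM at least 1.57-fold. The vehicle difference (log2 bound 1.37) was 0.41 with normexp and quantile scaling and thus no longer past 2-fold. In the pools labelled Pla2g3-/- Apoa1 was 2.17-fold lower with AOM (log2 ratio -1.12), but -0.27 with normexp and quantile scaling. It was also -0.27 without scaling and -0.96 with the percentile of detected probes, neither past 2-fold. It passed with quantile normalization (-1.05) and median scaling (-1.12). With normexp and percentile scaling it was -2.55, or -0.86 with the outlying backgrounds described for Sis replaced. The Apoa4 probe (chromosome 9, 46049661 to 46050404, a span longer than the probe) ranged from 2.29 to 4.13 and was not well above background on any array.

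The vehicle arrays also differed in genes of other organs. Of 10 hepatocyte markers, 7 were over 2-fold higher and 0 lower in the pool labelled Pla2g3-/-, beside 1.93% and 1.32% of all genes, with a median log2 ratio of 1.87, and their summed relative signal was 3.47 against 8.54. Ahsg, a liver plasma protein, was at least 31.4-fold higher and Alb, serum albumin, 26.5-fold higher there. Of 11 exocrine pancreas genes, 10 were over 2-fold higher in the same pool, with a median of 4.86. Fabp1 and Apoa1 are also hepatocyte genes, and the part of these other cells in their difference was not tested. Between the AOM arrays, 2 of 6 hepatocyte genes with a value were higher and 2 lower in the pool labelled Pla2g3-/-, beside 15.1% and 12.9% of all genes. Their summed relative signals were 4.11 and 2.69 on the Pla2g3+/+ and Pla2g3-/- AOM arrays, of which Alb made up 2.12 on the first. Ttr was 2.25-fold and Cps1 at least 4.31-fold higher in the pool labelled Pla2g3-/-, and Alb at least 145-fold and Apoc4 at least 10.9-fold lower. Between the vehicle arrays Ttr and Cps1 were within 2-fold, with log2 ratios of -0.11 and 0.25.

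Apob encodes the scaffold protein of chylomicrons and very low density lipoproteins. Its brighter probe (chromosome 12, 8012697 to 8012756) gave 568 on the Pla2g3+/+ vehicle array, 351 on the Pla2g3-/- vehicle array, 660 on the Pla2g3+/+ AOM array and 3358 on the Pla2g3-/- AOM array. Only the last stood apart, 5.70-fold higher in relative signal than the Pla2g3+/+ AOM array and 5.32-fold higher than the Pla2g3-/- vehicle array. The dimmer probe (chromosome 12, 8023194 to 8023253), at 214, 124, 239 and 899 in the same order, gave 4.21-fold and 4.04-fold. Both probes thus placed the Pla2g3-/- AOM array highest.

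Mttp encodes the microsomal transfer protein, which loads lipid onto apolipoprotein B. Its probe (chromosome 3, 137753868 to 137753927) gave 16.1 and 24.4 on the Pla2g3+/+ and Pla2g3-/- vehicle arrays and 110 and 104 on the AOM arrays. Both AOM arrays lay above both vehicle arrays, and the relative signal was 3.38-fold higher with AOM in Pla2g3+/+ and 2.38-fold higher in the pools labelled Pla2g3-/-. The vehicle signals were close to the detection limit, and with normexp background correction the log2 ratio was 0.60 or 0.22 in Pla2g3+/+, by scaling, and 0.49 or -1.48 in the pools labelled Pla2g3-/-. With the outlying backgrounds described for Sis replaced, the latter were 0.58 and 0.18. Mttp and Apob thus differed in pattern, although their proteins act in the same step.

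Sis encodes sucrase-isomaltase, the brush border enzyme that splits sucrose. Its probe (chromosome 3, 72692810 to 72692869) gave 213 on the Pla2g3+/+ vehicle array and 43.0 on the Pla2g3-/- vehicle array, and 4.78 and 16.1 on the AOM arrays, where it was not well above background. Sis was 4.99-fold lower in the pool labelled Pla2g3-/- with vehicle (log2 ratio -2.32, scanner error 0.24), the only one of the 10 genes over 2-fold lower there. It was at least 26.2-fold lower with AOM in Pla2g3+/+ and at least 4.52-fold lower in the pools labelled Pla2g3-/- (log2 bounds -4.71 and -2.18). With normexp and quantile scaling these were -1.90 and -0.54, the second no longer past 2-fold. In the vehicle comparison the log2 ratio of Sis was 0.16 with normexp correction and percentile scaling, and -1.40 once 4 outlying local backgrounds on the Pla2g3-/- vehicle array had been replaced, a form of the correction added after the first was seen.

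Anpep encodes aminopeptidase N, a brush border peptidase that myeloid and stromal cells also carry. Its probe (chromosome 7, 86966716 to 86966775) gave 216 and 311 on the vehicle arrays and 1179 and 1255 on the AOM arrays. The relative signal was 2.69-fold higher with AOM in Pla2g3+/+ and 2.24-fold higher in the pools labelled Pla2g3-/-, while the genotypes differed by under 2-fold under both treatments. In the pools labelled Pla2g3-/- the log2 ratio of 1.17 was 0.97 or 0.70 with the planned normexp, by scaling, and did not pass. With the outlying backgrounds described for Sis replaced, the log2 ratio was 1.08 and 1.07 and passed. Anpep thus ran opposite to Sis between treatments.

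Vil1 encodes villin, which bundles and severs actin in microvilli. Its probe (chromosome 1, 74481982 to 74482041) gave 12650 and 13890 on the vehicle arrays, 23450 on the Pla2g3+/+ AOM array and 41390 on the Pla2g3-/- AOM array. In relative signal these were 19.6, 21.4, 17.9 and 35.4, so that no comparison passed 2-fold. The ratio between the AOM arrays, 1.98-fold, lay just below it. It passed with median scaling (log2 ratio 1.06) and with normexp and percentile scaling (1.01). With AOM in the pools labelled Pla2g3-/-, the log2 ratio of 0.73 became 1.26 with quantile normalization, 1.30 with normexp and quantile scaling and 1.57 without scaling.

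**Figure D2:**
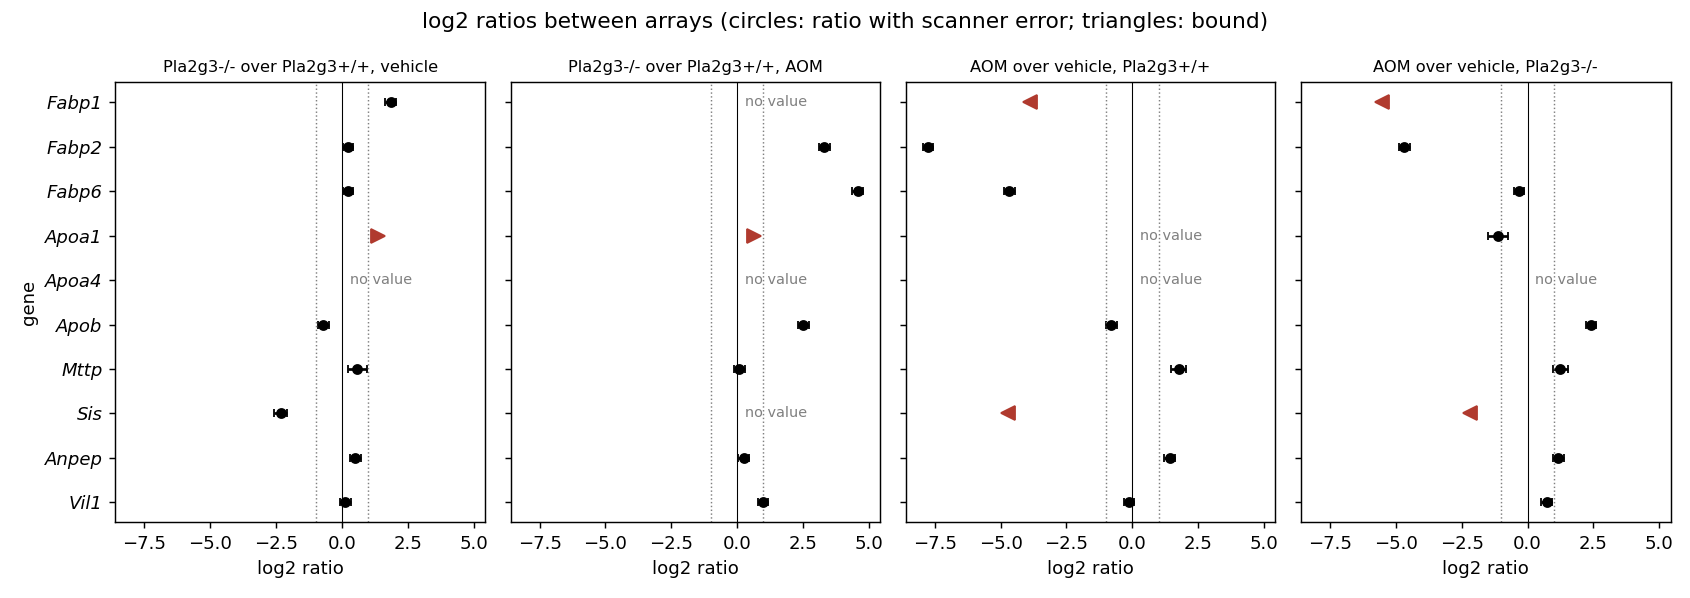
The log2 ratio of each gene in the 4 comparisons, with circles for ratios and their scanner error, triangles for bounds and dotted lines at 2-fold. Fabp2 reached -7.76 in Pla2g3+/+ with AOM, and Fabp6 4.58 between the AOM arrays.

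Between the vehicle arrays, 9 of the 10 had a ratio or bound, of which 2 were over 2-fold higher and 1 lower in the pool labelled Pla2g3-/-, beside 1.93% higher and 1.32% lower of 16395 genes. Between the AOM arrays, 3 of 7 were higher and 0 lower in the pool labelled Pla2g3-/-, beside 15.1% and 12.9% of 17202 genes. With AOM against vehicle in Pla2g3+/+, 2 of 8 were higher and 4 lower, beside 15.1% and 22.4% of 17282. In the pools labelled Pla2g3-/-, 3 of 9 were higher and 4 lower, beside 9.64% and 15.1% of 16519. The median log2 ratio of the genes with a value was 0.24, 0.98, -2.35 and -0.32 in these 4 comparisons, against -0.02, 0.03, -0.17 and -0.08 over all genes. With only genes above background on both arrays, the last 3 medians of the 10 genes were 1.75, -0.47 and 0.73, so that the sign of the last and the size of the others depended on which genes entered. The comparisons share arrays and are not independent of each other.

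Treatment and genotype were fitted together in limma over the 4 arrays, which leaves 1 residual degree of freedom. The fit takes any difference of the treatment effect between the genotypes as error. A lack of calls therefore does not show that the genes were unchanged. After Benjamini-Hochberg adjustment, 0 of the 9 tested genes were called for either term. The fit called 0% of 16505 genes for treatment and 0% for genotype, with 2716 and 160 genes at an unadjusted p under 0.05. The smallest limma adjusted p over all genes was 0.299 for treatment, which Fabp1, Fabp2, Mttp, Sis and Anpep shared, and 0.995 for genotype. With an intensity trend in limma the count was 0 as well.

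Other genes of these functions were described by lists, which give counts past 2-fold and no test. With AOM against vehicle in Pla2g3+/+, 8 of 31 fat absorption genes were lower and 1 higher, a share near the 22.4% of all genes lower there, the retinol carrier Rbp2 being 14.3-fold lower. Between the AOM arrays, 10 of 32 were higher and 1 lower in the pool labelled Pla2g3-/-, beside 15.1% and 12.9% of all genes, among them Rbp2, 20.2-fold, and the sterol exporter subunit Abcg5 with a log2 ratio of 3.00. Dgat1, which makes triglyceride, was within 2-fold throughout, with log2 ratios of 0.13, 0.40, -0.29 and -0.02 in the order given above.

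The bile acid genes ran with Fabp6 in Pla2g3+/+. Of 4 with a value, 4 were over 2-fold lower with AOM, beside 22.4% of all genes. They were the basolateral exporter subunits Slc51a, at least 800-fold, and Slc51b (log2 ratio -6.59), the apical transporter Slc10a2 (-3.84) and the bile acid receptor Nr1h4 (-3.17). In the pools labelled Pla2g3-/-, 3 of 5 were lower, beside 15.1% of all genes. Slc51a was 198-fold lower there, while Fabp6 was within 2-fold.

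Brush border genes also differed between the AOM arrays. Of 23 cytoskeleton and adhesion genes, 14 were lower and 3 higher with AOM in Pla2g3+/+, beside 22.4% and 15.1% of all genes. Between the AOM arrays, 16 were higher and 3 lower in the pool labelled Pla2g3-/-, beside 15.1% and 12.9% of all genes. Tmigd1, an adhesion protein of microvilli, was 142-fold lower with AOM in Pla2g3+/+, and the bundling protein Espn had a log2 ratio of -3.45. Vill and Pdzk1 went the other way, at 3.25 and 3.18. Vil1, at -0.13, was within 2-fold.

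Of 15 hydrolases with a value, 8 were lower and 0 higher with AOM in Pla2g3+/+. Between the AOM arrays, 11 of 16 were higher and 1 lower in the pool labelled Pla2g3-/-. Over all genes, 22.4% were lower and 15.1% higher with AOM in Pla2g3+/+. Between the AOM arrays, 15.1% of all genes were higher and 12.9% lower in the pool labelled Pla2g3-/-. The meprin subunits Mep1a and Mep1b had log2 ratios of -4.52 and -4.21 with AOM in Pla2g3+/+, and intestinal alkaline phosphatase Alpi -3.88. Anpep, at 1.43, was opposite to them. Of 9 nutrient transporters, 6 were lower and 0 higher with AOM in Pla2g3+/+, and 7 were higher between the AOM arrays, the fructose transporter Slc2a5 by 23.1-fold and the peptide transporter Slc15a1 by 24.6-fold.

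Of 20 transcription factors of enterocytes, 9 were lower and 2 higher with AOM in Pla2g3+/+, beside 22.4% and 15.1% of all genes. Cdx2 had a log2 ratio of -3.59, Ppara -3.74 and Klf4 -2.55, whereas Onecut2, a factor of the proximal small intestine, was at least 673-fold higher on the Pla2g3+/+ AOM array and not well above background on the other 3. Of 9 genes of the wider lipid binding protein family, 5 were lower and 2 higher in that comparison, beside the same shares of all genes. Fabp5, the epidermal form, ran opposite to Fabp2 with AOM in Pla2g3+/+ (log2 ratio 1.20) and between the AOM arrays (-2.30). In the pools labelled Pla2g3-/- both were lower with AOM, Fabp5 at -1.42 and Fabp2 at -4.67.

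**Figure D3:**
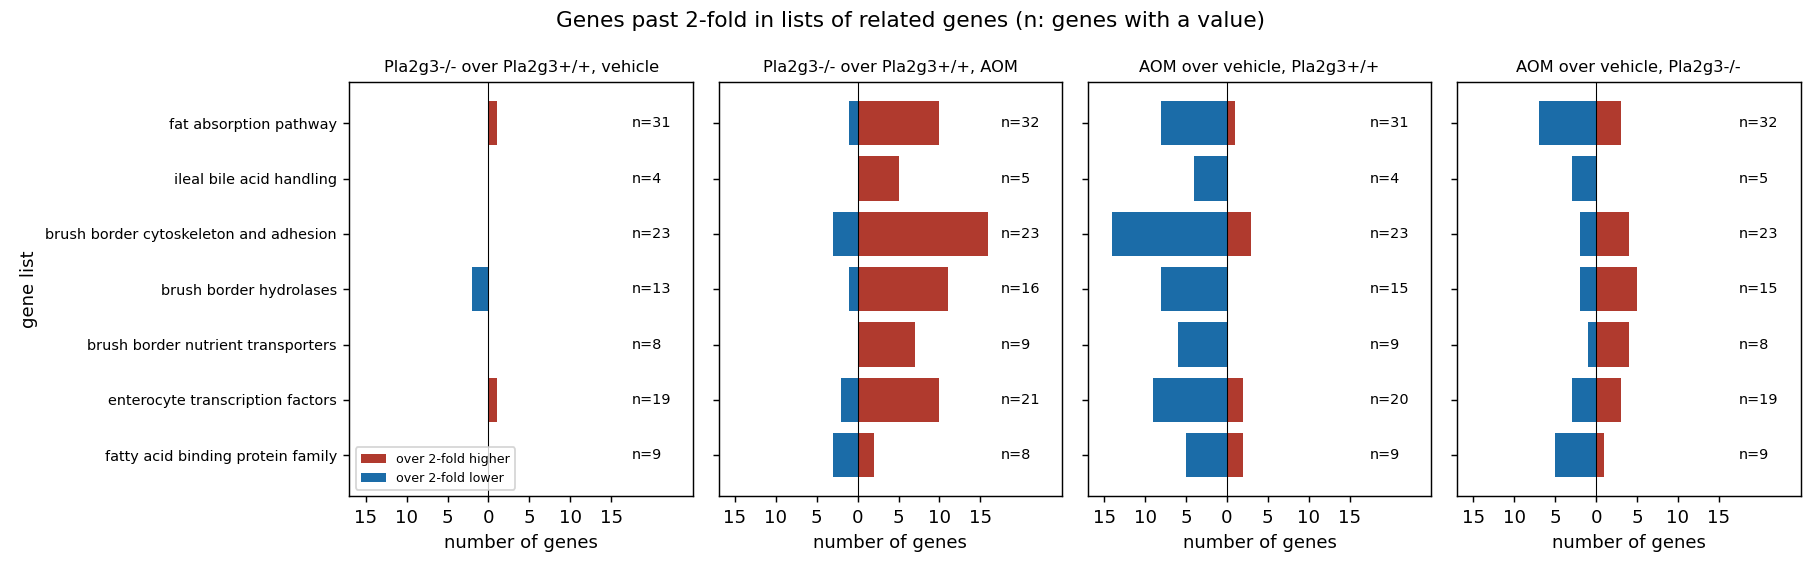
Number of genes over 2-fold higher (red, to the right) or lower (blue, to the left) in each list of related genes and each comparison, with n the genes that had a value. The cytoskeleton and adhesion list had 16 higher and 3 lower of 23 between the AOM arrays, beside 15.1% and 12.9% of all genes.

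Marker genes of several cell types moved with these differences. With AOM in Pla2g3+/+, 9 of 10 mature colonocyte genes were over 2-fold lower, beside 22.4% of all genes. On the Pla2g3+/+ AOM array the summed relative signal of these genes was 49.6, against 668, 706 and 364 on the Pla2g3+/+ vehicle, Pla2g3-/- vehicle and Pla2g3-/- AOM arrays. That of 9 smooth muscle genes was 42.3, against 664, 702 and 641. That of 7 goblet cell genes was 138, against 1714, 1681 and 638. Genes raised by Wnt signalling in colon tumors went the other way, at 96.7 against 27.2, 29.5 and 28.1, with 10 of 12 higher, beside 15.1% of all genes. So did Paneth cell genes, at 150 against 29.9, 27.6 and 6.11, with 6 of 7 higher. Mmp7 is in both of these lists. Macrophage genes stood at 20.2 against 9.995, 11 and 9.20, with 5 of 6 higher.

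General epithelial genes differed less, with summed relative signals of 890, 885, 490 and 733 on the Pla2g3+/+ vehicle, Pla2g3-/- vehicle, Pla2g3+/+ AOM and Pla2g3-/- AOM arrays. With AOM in Pla2g3+/+, 4 of 10 were over 2-fold lower, beside 22.4% of all genes. In the pools labelled Pla2g3-/-, Fabp1, Fabp2, Apoa1 and Sis were over 2-fold lower with AOM, Apoa1 and Sis not under every setting. There 7 of 9 hepatocyte genes were lower too (median log2 ratio -2.90), as were 11 of 11 exocrine pancreas genes (-5.31). So were 6 of 6 adipocyte genes (-2.79) and 5 of 7 goblet cell genes (-1.27), beside 15.1% of all genes lower and 9.64% higher. Mature colonocyte genes had a median of -0.63, with 4 of 10 lower and 2 higher. Smooth muscle genes had a median of -0.12 and general epithelial genes of -0.21. With AOM in Pla2g3+/+, 6 of 6 adipocyte genes (-3.825) and 7 of 7 goblet cell genes (-3.375) were lower as well. There 4 of 8 hepatocyte genes were lower and 3 higher, and 3 of 8 exocrine pancreas genes were lower and 1 higher. Over all genes, 22.4% were lower and 15.1% higher with AOM in Pla2g3+/+. In RNA of whole tissue, fewer cells of a type and less RNA per cell cannot be told apart, and the part of cell makeup in the values of the 10 genes was not tested.

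**Figure D4:**
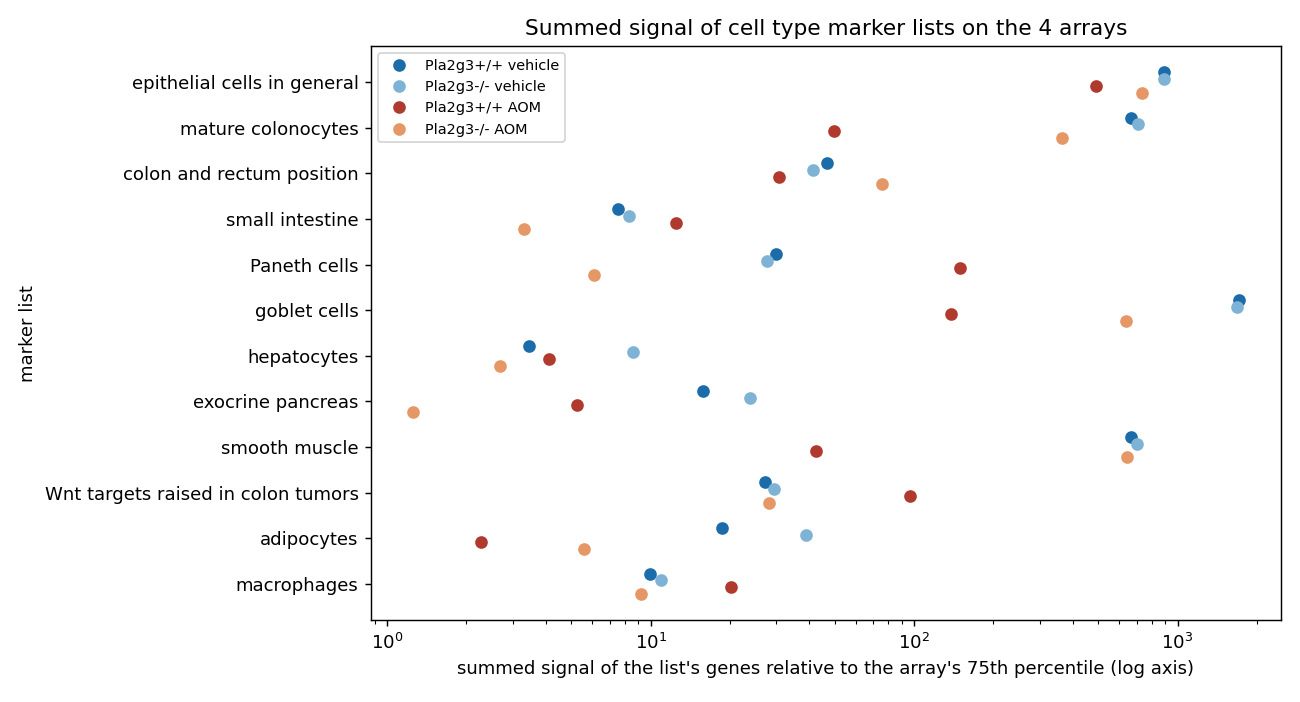
Summed relative signal of each cell type marker list on each array, on a log axis. The Pla2g3+/+ AOM array was lowest for smooth muscle, at 42.3, and mature colonocytes, at 49.6, among other lists. It was highest for the Wnt target list, at 96.7, and for Paneth cells, at 150, among others.

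Profiles over the 4 arrays were set beside those of 14791 genes well above background on all of them, by the distance between log2 values centred on the gene's mean. The nearest to Fabp2 were Apol10a, at a distance of 1.02, Tmigd1 and Hkdc1. Those nearest to Vil1 were Lrba, at 0.027, B130024G19Rik and Atg7, to Anpep Sdk1, at 0.090, Mki67 and Mrc1, and to Mttp Aox1, at 0.136, Plxdc2 and Aldh1l1. Fabp2 had no neighbour as close as those of the other 3. The distance grows with the range of a profile, however, and that of Fabp2 was the widest. With 4 arrays such distances are a description, and Sis was not well above background on all arrays.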

How the data were processed

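RNA of 4 colon pools, 27.7 ng each, was labelled with Cy3 and hybridized to Agilent arrays of 60-base probes on 1 slide. The authors deposited scanner intensity from Agilent Feature Extraction 11.5.1.1 (submitters' processing notes), background-subtracted and not scaled between arrays; the deposited value table is a ratio, that intensity over the array's 75th percentile. Outlier spots were left out, log2 values of replicate spots averaged, and the array's 75th percentile subtracted. Of 39423 probes, 31388 were named through RefSeq (GRCm38.p6); coordinates of probes are mm9 as in the files. For each gene the probe with the highest mean was used. Groups came from the sample labels. Python 3.11.15, pandas 2.3.3, numpy 2.4.6, R 4.3.3 and limma 3.58.1 were used. The limma fit took genes well above background on at least 2 arrays and was tested on simulated data. These had equal noise for every gene and the same treatment effect in both genotypes, a setting unlike these arrays. The number of arrays limits the precision.

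The 10 genes, the gene and marker lists and the tests were chosen with earlier results of these data known. Named genes of a list were taken from those with the largest log2 ratios past 2-fold, and of marker lists from the highest mean signal. Other names were added after their values were seen, where they fall outside this rule. These were Dgat1, Fgf15, Apoc3, Apoc4, Enpep, Ttr, Cps1, Hoxb13, Ahsg, Alb, Klf4, Cdx2, Fabp5 and Alpi. Alternatives were scaling by quantiles, by the median, by the percentile of detected probes or not at all, normexp correction (offset 50) with quantile or percentile scaling, other treatments of dim probes, the mean over probes or the dimmest probe, the deposited table, and thresholds of 1.5-fold and 4-fold. A second form of normexp, with outlying local backgrounds replaced, was added after the planned one had been seen.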

Additional observations from a re-analysis of the deposited data

How the results depend on the processing

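Of 104 counts of genes past the fold threshold, recomputed with the settings chosen at the outset, 90 stayed within 1.5 times, and 2 ratios past 2-fold turned direction. Both turned with normexp correction and percentile scaling: Sis between the vehicle arrays went to 0.16 and Mttp with AOM in the pools labelled Pla2g3-/- to -1.48. On the Pla2g3-/- vehicle array, 4 spots had a local background over 10 times the array's median of 26, the highest 14138, while no other array had one. After the planned normexp values had been seen, the correction was therefore run a second time with these 4 backgrounds set to the median. Sis was then at -1.40 and Mttp at 0.18, neither turned, and Mttp still did not pass 2-fold. Normexp was thus run in 2 forms, and the planned form is the one counted above. Of 44 medians of the 10 genes under those settings, 10 moved by 0.2 or more: that with AOM in Pla2g3+/+ ranged from -2.38 to -0.47, and that in the pools labelled Pla2g3-/- from -1.48 to 0.73.

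With vehicle, the count higher was 1 with normexp and quantile scaling and 1 with either scaling after the second normexp, Apoa1 being the gene that no longer passed, 1 with only genes above background on both arrays and 0 at 4-fold. The count lower there was 0 with the planned normexp and percentile scaling and 2 at 1.5-fold. Between the AOM arrays the count higher was 5 with no filter on dim probes and 5 at 1.5-fold. With AOM in Pla2g3+/+, the count higher was 1 under both forms and both scalings of normexp and 0 at 4-fold, and the count lower was 2 with only genes above background on both arrays. In the pools labelled Pla2g3-/-, the count lower was 2 with quantile scaling after either normexp and 2 with only genes above background on both arrays, and the count higher was 1 at 4-fold. Fewer genes have a value when both arrays must be above background; otherwise the cause was not tested. The limma counts were 0 under every alternative run.

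Without scaling, the median of all genes shifted by 1.02 on the log2 scale with AOM in Pla2g3+/+ and by 0.85 in the pools labelled Pla2g3-/-. Fabp6 in the latter was then 0.52, and with AOM in Pla2g3+/+ Vil1 was 0.89 and Apob 0.22. Mttp between the AOM arrays was -0.08 without scaling. All of these were of opposite sign to their scaled values, which were within 2-fold. No paired analysis was possible because each group had 1 array. Signals near background limit Apoa1, Apoa4, Mttp, Sis and, with AOM, Fabp1.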
